A study of Oryza sativa with 6 samples.

Results

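LEA19, salT, OsPP2C59 and CYP707A6 are 4 rice genes grouped here under responses to drought, salt or the stress hormone abscisic acid (ABA). They were examined in shoot apices of the mutant dsl1 and of wild type (WT). The 4 genes were found by symbol or synonym in the rice gene reference, among the 15140 genes that have a transcript cluster (a group of probes read as 1 transcript) paired with that gene alone. Each of the 4 has 1 such cluster. They were picked because their levels were higher in dsl1 on these same arrays, so their own differences are described here without a test.

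Transcripts were measured on 6 single-colour arrays, 3 of dsl1 and 3 of WT. The dsl1 plants carry a lesion in a histone deacetylase gene and are dwarf with slender leaves. The sources used here give neither the allele and altered locus nor the strain of either group or the plant age in days, so the mutated gene itself is not described. All plants grew in soil with no stress treatment recorded in the labels, and apices with the meristem and youngest leaf primordia were dissected when the tip of a young leaf appeared. Values are the authors' deposited log2 levels, so a difference of 1 is a 2-fold change. The labels do not say whether replicates came from separate plants, so spreads and p-values may be technical.

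ABA accumulates in plants that lose water. Its receptors then bind and inhibit some protein phosphatases of the PP2C class, which frees SnRK2 kinases to activate bZIP transcription factors. These factors switch on genes for protective proteins such as late embryogenesis abundant (LEA) proteins and dehydrins. The signal is ended in part by cytochrome P450 enzymes of the CYP707A family, which hydroxylate ABA. Many genes of the pathway that restrain the signal are themselves induced by it.

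salT showed the largest difference of the 4 genes. It encodes a small mannose-binding lectin of the jacalin family, first known as a salt-induced protein of rice. Its log2 level was 9.79, 10.05 and 8.01 on dsl1 arrays 1 to 3, against 5.68, 6.02 and 4.70 on WT arrays 1 to 3. The groups did not overlap: the lowest dsl1 value lay 1.99 above the highest WT value. The mean was 9.28 ± 1.11 in dsl1 and 5.46 ± 0.684 in WT (SD, n = 3 each), a difference of 3.82 (SE 0.583) and a 14.1-fold higher level. Every SE given is the moderated one of the limma fit. It borrows from the spread of all clusters and does not follow from the gene's SDs alone. Only 5 of the 15140 genes differed more in the upward direction. In dsl1 the mean salT signal stood above that of 94.99% of the genes, and in WT above that of 37.7%. salT was also the most variable of the 4, with a dsl1 SD larger than that of 99.7% of genes and a WT SD larger than that of 97.4%. The third array was its lowest in both groups.

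LEA19, also listed as LEA3-1, encodes a late embryogenesis abundant protein, one of a class of hydrophilic proteins that accumulate in drying seeds and in stressed leaves. It stood at 4.80, 4.14 and 4.96 on the 3 dsl1 arrays, against 1.76, 2.40 and 2.13 on the 3 WT arrays. Every dsl1 value was at least 1.74 above every WT value. The mean was 4.63 ± 0.431 in dsl1 and 2.10 ± 0.323 in WT (SD, n = 3 each), a difference of 2.54 (SE 0.261), or 5.80-fold. In dsl1 the LEA19 signal was above that of 23.9% of genes, a modest level, and in WT above that of 0.806%. When all clusters were put in 5 equal groups by level, the dimmest averaged 2.81, so the transcript was near the floor of the array in WT and the size of the fold is uncertain.

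OsPP2C59 encodes a protein phosphatase of the PP2C family. Whether it takes part in ABA signalling was not examined here. Its values were 7.69, 8.47 and 8.58 on the dsl1 arrays, against 6.02, 5.84 and 5.64 on the WT arrays. The groups were apart by 1.67. The mean was 8.25 ± 0.488 in dsl1 and 5.83 ± 0.187 in WT (SD, n = 3 each), a difference of 2.41 (SE 0.255), or 5.32-fold. Neither level was near the floor: the signal was above that of 85.3% of genes in dsl1 and of 44.3% in WT.

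CYP707A6, also listed as ABA8OX2, encodes an enzyme that hydroxylates ABA and so starts its breakdown. It had 4.90, 4.81 and 4.84 on the dsl1 arrays, against 4.004, 4.16 and 4.10 on the WT arrays. The difference was the smallest of the 4 but the arrays of each group lay closest together. The mean was 4.85 ± 0.0463 in dsl1 and 4.09 ± 0.0762 in WT (SD, n = 3 each), a difference of 0.76 (SE 0.119), or 1.70-fold, and the nearest values of the groups were 0.66 apart. Larger increases were seen in 413 genes. The CYP707A6 signal was above that of 27.2% of genes in dsl1 and of 16.0% in WT, which are low levels. Its dsl1 SD was larger than that of 7.27% of genes and its WT SD larger than that of 12.2%.

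Groups also did not overlap, with dsl1 higher, in 15.0% of all 15140 genes, and nothing is read from the 4 of 4 here since they were picked on this contrast. In bulk tissue, more RNA per cell and more cells of a type cannot be told apart.

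**Figure D1:**
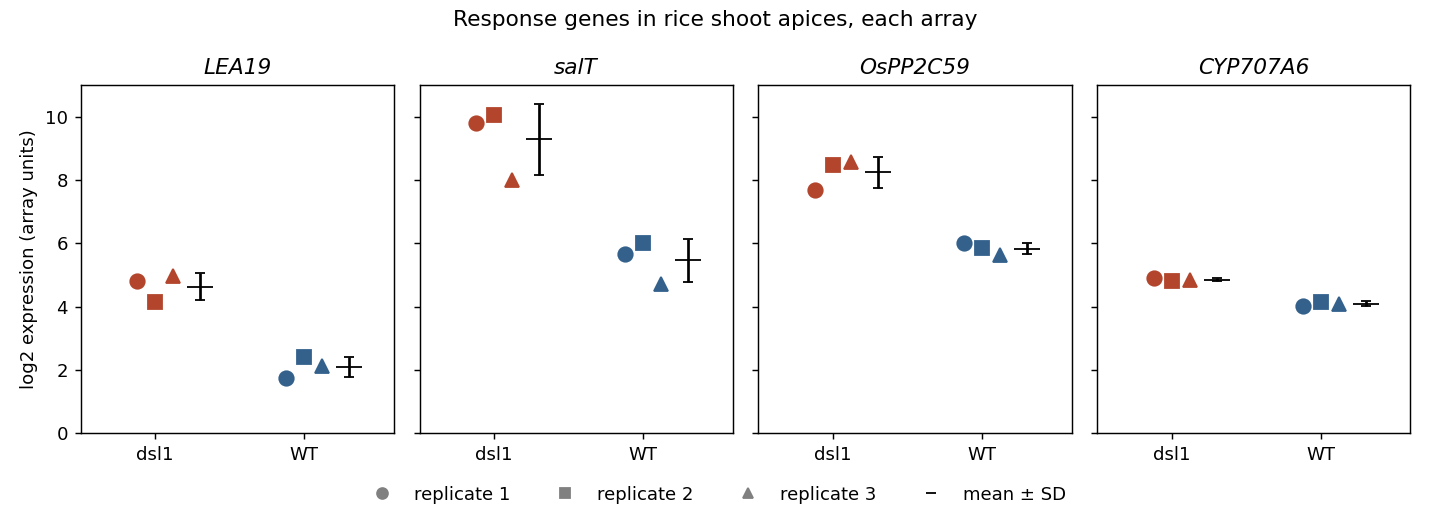
Log2 expression of the 4 genes on each array, with dsl1 on the left and WT on the right of each panel. Marker shapes give the replicate number and black bars the mean ± SD of 3 arrays. In every panel the 3 dsl1 points lie above the 3 WT points, with the widest scatter for salT and the narrowest for CYP707A6.

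**Figure D2:**
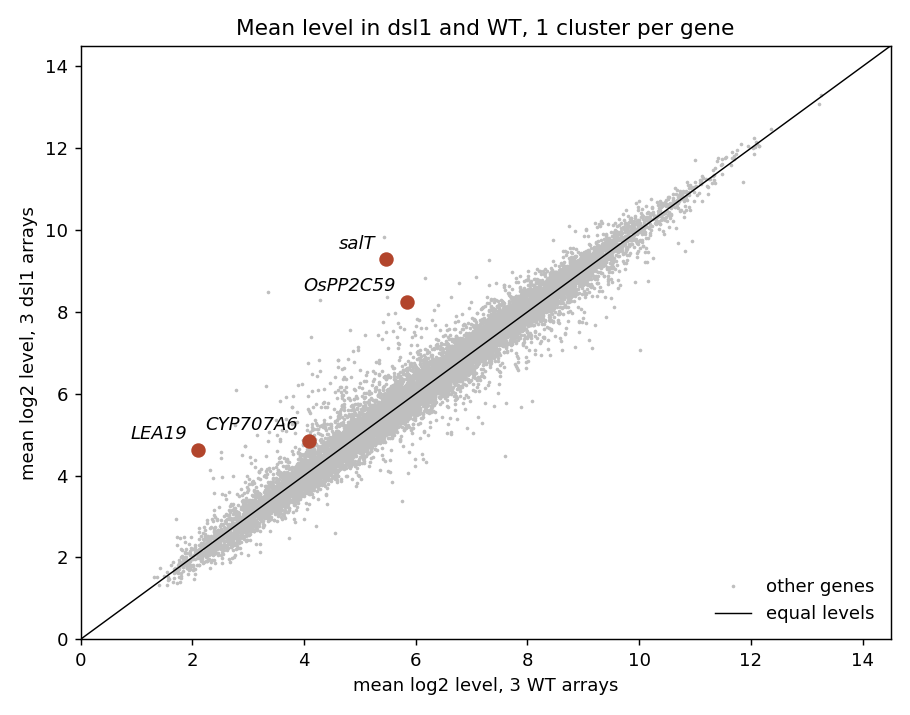
Mean log2 level on the 3 dsl1 arrays (vertical axis) against that on the 3 WT arrays (horizontal axis) for 15140 genes, with the line of equal levels. LEA19, salT and OsPP2C59 lie far above the line, by 2.54, 3.82 and 2.41, and CYP707A6 closer to it, by 0.76.

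The 4 genes did not rank the arrays alike. Within dsl1, replicate 3 was highest for LEA19 and OsPP2C59 and lowest for salT, while replicate 2 was highest for salT and lowest for LEA19 and CYP707A6. Likeness was measured as the root mean square difference over the 6 arrays between profiles centred on each gene's mean, in log2 units. LEA19 and OsPP2C59 were the closest pair of the 4, at 0.495, and salT and CYP707A6 the farthest, at 1.70. With groups that did not overlap, leaving out 1 array could not turn a difference, so the ranges that follow show its size only. With 1 array left out, the difference was 3.44 to 4.46 for salT, 2.37 to 2.78 for LEA19, 2.24 to 2.69 for OsPP2C59 and 0.72 to 0.80 for CYP707A6. The upper value for salT came without dsl1 replicate 3, where its fold moves by over 1.5 times.

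**Figure D3:**
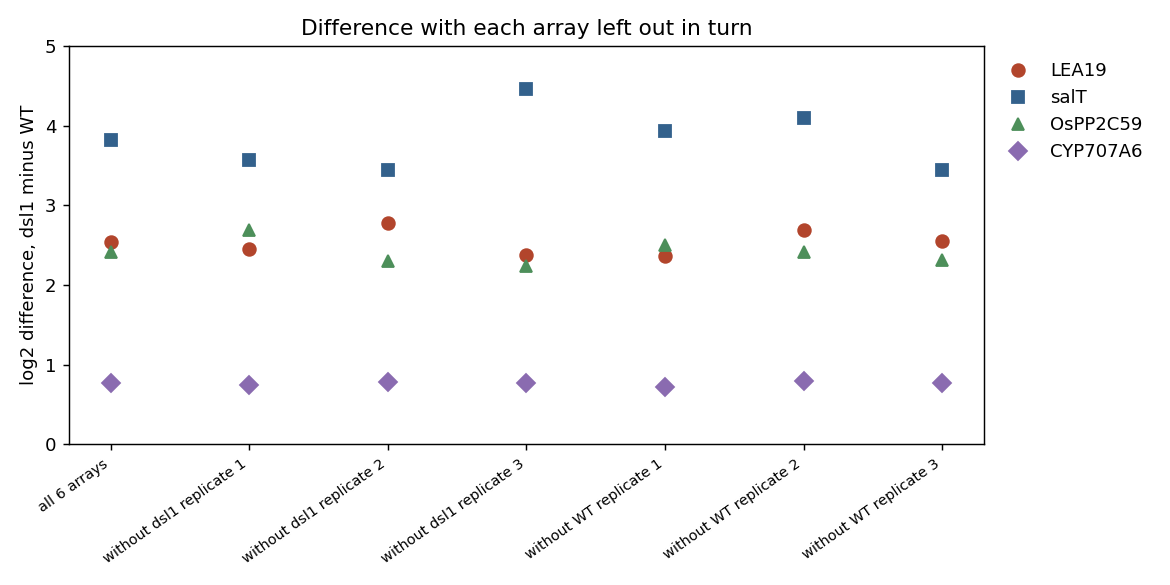
Log2 difference, dsl1 minus WT, of the 4 genes with all 6 arrays and with each array left out in turn. All points are above 0, which groups without overlap fix in advance. salT ranges from 3.44 to 4.46, and CYP707A6 stays within 0.72 to 0.80.

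Other genes with known names had profiles close to these. Of 1722 other named genes, the 3 with the most similar profile were taken for each of the 4, as a description of 6 arrays only. For LEA19 they were JAMYB, a jasmonate-inducible MYB transcription factor (0.425), OsTIP1, a water channel of the vacuole membrane (0.493), and OsPP2C59 itself (0.495). JAMYB was also nearest to OsPP2C59 (0.447), followed by the stress-related transcription factor NAC45 (0.459) and LEA19. JAMYB read 6.26, 6.78 and 6.41 on the dsl1 arrays, against 3.56, 4.64 and 4.23 on the WT arrays. For OsTIP1 the values were 7.92, 7.01 and 8.35 in dsl1, against 5.99, 5.31 and 4.93 in WT. Like LEA19, OsTIP1 had its lowest dsl1 value in replicate 2, where JAMYB had its highest. In WT, OsTIP1 was highest in replicate 1, where LEA19 was lowest.

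For salT the nearest named gene was ASMT, an enzyme of melatonin synthesis (0.539), then the chitinase CH16 (0.851) and JAMYB (1.07). ASMT read 9.43, 10.06 and 8.32 on the dsl1 arrays, against 4.64, 6.66 and 4.89 on the WT arrays. It followed salT in having its highest dsl1 value in replicate 2 and its lowest in replicate 3. In WT both were highest in replicate 2, but ASMT was lowest in replicate 1 and salT in replicate 3. CYP707A6, with its small and even difference, lay nearest to FTSH1, a membrane-bound protease (0.0445), the glutathione transferase GST-II (0.0830) and OsCASPL1E1, of the casparian strip-like membrane proteins (0.107). FTSH1 read 9.10, 8.95 and 8.92 on the dsl1 arrays, against 8.16, 8.35 and 8.30 on the WT arrays. The measure takes account of size, so a gene with a small difference finds neighbours with small differences.

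**Figure D4:**
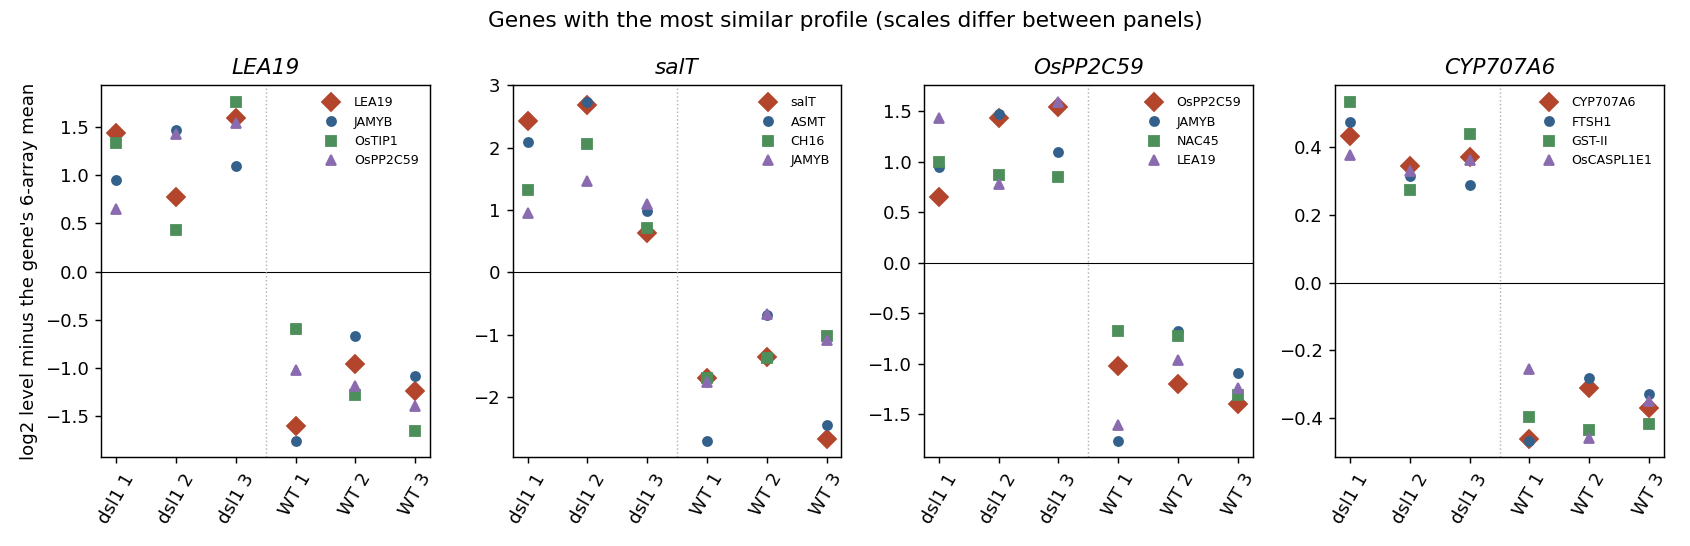
Log2 level minus the gene's mean over the 6 arrays, for each of the 4 genes (diamonds) and the 3 named genes closest to it, with dsl1 arrays left and WT arrays right of the dotted line. ASMT follows salT in its drop at dsl1 replicate 3, and the 3 genes beside CYP707A6 stay close to it on all 6 arrays.

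Other genes of the pathway, and further stress and transport genes, were read from 12 lists of gene names. The lists held 141 measured genes besides the 4. They were chosen with earlier results of these data known, so a share above that of all genes is not read as a result. In limma's test over all 54922 clusters, at a Benjamini-Hochberg adjusted p under 0.05, 8 clusters passed as higher in dsl1 (0.0146%) and 6 as lower (0.0109%), or 0.0330% and 0.00661% when 1 cluster stands for each of the 15140 genes. None of the 141 list genes passed in either direction. When only clusters paired with 1 gene were fitted, 59 clusters were higher and 16 lower, and 3 list genes passed as higher, NAC45, ONAC077 and HAK5. Without the rows listed ahead of the first such cluster, 36 were higher and 16 lower, and NAC45 was the 1 list gene that passed. The sign of the difference was positive in 92 of the 141 and negative in 49, beside 8016 and 7120 of the 15136 genes outside the 4. With no adjustment, 24 had a p under 0.05 and were higher in dsl1 (17.0% of the lists, against 9.46% of all genes) and 3 lower (2.13%, against 5.52%). Groups did not overlap in 33 with dsl1 higher (23.4%, against 15.0% of all genes) and in 9 with dsl1 lower (6.38%, against 9.33%). The 3 lower genes were OsPP2C49, CIPK10 and OsTPP1. The median difference of the 141 was 0.080, beside 0.018 over the 15136 genes outside the 4. The 141 ranged from -1.61 to 1.81.

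Few genes that set the ABA level were measured. Of 5 synthesis genes in the reference, 2 had a cluster of their own. MCSU3, which activates the cofactor of the last step of synthesis, had 7.08 ± 0.154 in dsl1 and 6.97 ± 0.200 in WT (SD, n = 3 each, limma adjusted p = 0.81). PSY3, a phytoene synthase that feeds the carotenoid precursors, had 6.08 ± 0.109 in dsl1 and 5.97 ± 0.546 in WT (adjusted p = 0.897). Groups overlapped for both. CYP707A6 was the only 1 of 3 breakdown genes measured, so whether its relatives moved with it is not analysed here.

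Of the signalling core, the receptor OsPYL11 differed by -0.17 (SE 0.169, limma adjusted p = 0.717). It was the only receptor gene matched by name, so other receptors were not read. The 32 measured PP2C genes other than OsPP2C59 were higher in 25 cases and lower in 7, and none passed. Their median was 0.14 and their range -0.55 to 0.92, beside 2.41 for OsPP2C59, which was picked for its size. The unadjusted limma p was under 0.05 in 4, of which 3 were higher (9.38% of the 32, beside 9.46% of all genes) and 1 lower (3.125%, beside 5.52%). BIPP2C1, a PP2C gene linked to pathogen defence, stood at 8.32 ± 0.250 in dsl1 and 7.41 ± 0.653 in WT (SD, n = 3 each, adjusted p = 0.376). OsPP2C39 and OsPP2C41 differed by 0.73 and 0.60, and OsPP2C49 by -0.34, with adjusted p of 0.35, 0.377 and 0.407.

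The PP2C genes that act as ABA co-receptors were set apart after their values were seen. Of the 5 measured, 4 were higher and 1 lower, none passed in limma, and they ranged from -0.34 for OsPP2C49 to 0.43 for OsPP2C30, with a median of 0.19. At an unadjusted p under 0.05 that group held OsPP2C49 alone, which was lower, beside 5.52% of all genes lower at that p. The 27 other PP2C genes had a median of 0.074.

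Of 10 SnRK2 kinase genes in the reference, 4 were measured, and these lay near 0. The rest of that family was not read, so the kinase step is covered only in part. OsSAPK7 differed by -0.24 (SE 0.116, limma adjusted p = 0.476) without overlap of the groups, while OsSAPK4, OsSAPK1 and OsSAPK3 differed by 0.054, 0.023 and -0.00044 with overlap. The signs of these 3 turned under other settings. ABF2, also listed as BZIP23, a bZIP factor that binds ABA response elements, had 7.26 ± 0.137 in dsl1 and 6.73 ± 0.269 in WT (SD, n = 3 each), a difference of 0.53 that did not pass (adjusted p = 0.351). OsVP1, a regulator of seed maturation, had a low level of 3.87 in dsl1 and 3.94 in WT.

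Among the LEA and dehydrin list, 3 genes beside LEA19 were higher and 2 lower. The list also caught LTI6B and LTI6A, both higher, which are neither LEA proteins nor dehydrins. Of the others, RAB16C was higher, and LEA1 and EM were lower. LTI6B, a small hydrophobic membrane protein of the cold response, had 9.93, 10.34 and 9.95 on the dsl1 arrays, against 8.94, 9.77 and 9.004 on the WT arrays, without overlap (difference 0.84, SE 0.253, limma adjusted p = 0.333). RAB16C, a dehydrin, had 3.48, 3.14 and 3.49 in dsl1, against 2.78, 2.85 and 3.02 in WT (difference 0.49, adjusted p = 0.338), at levels near the floor. LTI6A, a relative of LTI6B, differed by 0.29 without overlap (adjusted p = 0.486). None of the 5 passed, and LTI6B and RAB16C were the 2 with an unadjusted p under 0.05. They were 40% of the 5, beside 9.46% of all genes higher at that p.

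The value of the seed LEA gene EM rested on a single array. It had 3.98, 3.88 and 3.88 in dsl1, against 3.69, 7.001 and 3.86 in WT. Its difference of -0.94 turned to 0.14 without WT replicate 2. LEA1, also listed as LEA3-2 and named here after its values were seen, had 5.18, 4.62 and 4.62 in dsl1, against 4.35, 5.83 and 5.52 in WT, with overlap and a difference of -0.43 (limma adjusted p = 0.696).

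Markers of seed were read beside the LEA genes, since seeds are a main site of LEA expression. Of 6, 4 were measured: 1 was higher, 3 were lower and none passed in limma. GLUA1 alone, at -0.40, had an unadjusted p under 0.05, beside 5.52% of all genes lower at that p. The mean log2 level of the 4 per array was 4.54 to 4.70 in dsl1 and 4.65 to 4.76 in WT. GLUB2, a glutelin, was near the floor at 1.76 in dsl1 and 1.82 in WT. The part of seed-type expression in the LEA values was not tested.

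Of 20 drought and cold transcription factors, 13 were higher and 7 lower, with an unadjusted p under 0.05 in 5 of the higher and 0 of the lower ones. These were 25% and 0% of the 20, beside 9.46% and 5.52% of all genes. None of the 20 passed in limma over all clusters. NAC45 came nearest, with 6.36, 6.23 and 6.22 on the dsl1 arrays, against 4.69, 4.64 and 4.05 on the WT arrays (difference 1.81, SE 0.194, limma adjusted p = 0.082). ONAC077 had 4.35, 5.03 and 4.13 in dsl1, against 2.999, 2.79 and 2.89 in WT (difference 1.61, adjusted p = 0.162). Its WT level was near the floor, so the size of that difference is uncertain. On gene-paired clusters alone NAC45 and ONAC077 passed (adjusted p = 0.0161 and 0.0396), as did NAC45 without the first rows (0.028). NAC48, also listed as SNAC2 and a known activator of stress genes, differed by 0.91 and HOX24, a homeodomain-leucine zipper factor, by 1.06, with adjusted p of 0.26 and 0.333. Groups did not overlap with dsl1 higher in 30% of the 20, beside 15.0% of all genes. These 4, named for the smallest p in their list, were among them, so their lack of overlap is not read as a result.

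The fifth factor with an unadjusted p under 0.05 was MYB2, named after its values were seen, at 0.70 with overlap. The cold regulator CBF3, also listed as DREB1A and chosen in the same way, scattered widely, with 6.55, 3.48 and 5.79 in dsl1 and 6.48, 6.38 and 4.99 in WT, so that no difference could be seen at this spread (limma adjusted p = 0.773).

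The 46 salt and potassium genes comprised transporters and the CIPK kinases with their calcium sensors, of which 30 were higher and 16 lower. None passed in limma, and the unadjusted p was under 0.05 in 9 of the higher ones and 1 of the lower. These were 19.6% and 2.17% of the 46, beside 9.46% and 5.52% of all genes. HAK5, a high-affinity potassium transporter, had 5.52, 5.56 and 5.61 in dsl1, against 4.53, 4.41 and 4.81 in WT (difference 0.98, SE 0.145, limma adjusted p = 0.162, and 0.0396 on gene-paired clusters alone). CIPK1, CIPK21 and the transporter HAK15 differed by 0.84, 0.62 and 0.56, with adjusted p of 0.256, 0.293 and 0.256, all without overlap. Groups did not overlap with dsl1 higher in 21.7% of the 46, beside 15.0% of all genes. The largest difference in the lower direction was that of CIPK10, named after its values were seen, with 4.18, 5.07 and 5.80 in dsl1, against 7.20, 6.84 and 5.83 in WT. Its groups were nearly touching and its difference of -1.61 did not pass (adjusted p = 0.331).

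Of 15 osmoprotectant genes, 9 were higher and 6 lower, with 1 each at an unadjusted p under 0.05 and none passing in limma. Each was 6.67% of the 15, beside 9.46% of all genes higher and 5.52% lower at that p. OsTPP1, a trehalose-phosphate phosphatase, had 7.14 ± 0.288 in dsl1 and 7.97 ± 0.355 in WT (SD, n = 3 each, adjusted p = 0.305). OAT, of proline and arginine metabolism, differed by 0.45, SAMDC, of polyamine synthesis, by 0.38, and OsTPP9 by 0.25, with adjusted p of 0.403, 0.472 and 0.544. This list also caught TPP2, listed as TPPII, which by that name is a peptidase and no trehalose enzyme.

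Of 14 further stress-induced genes, 7 were higher and 7 lower, none passed in limma, and 3 of the higher and 0 of the lower ones had an unadjusted p under 0.05. These were 21.4% and 0% of the 14, beside 9.46% and 5.52% of all genes. OsSAP9, a stress-associated zinc-finger protein, had 9.65 ± 0.0873 in dsl1 and 9.10 ± 0.142 in WT (SD, n = 3 each, adjusted p = 0.274). BURP17 and BURP12, of the BURP-domain family that includes a drought marker of Arabidopsis, differed by 1.17 and 0.58 (adjusted p = 0.302 and 0.3). OsSAP6 differed by 0.38 (adjusted p = 0.435). salT was the only lectin matched by its list.

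**Figure D5:**
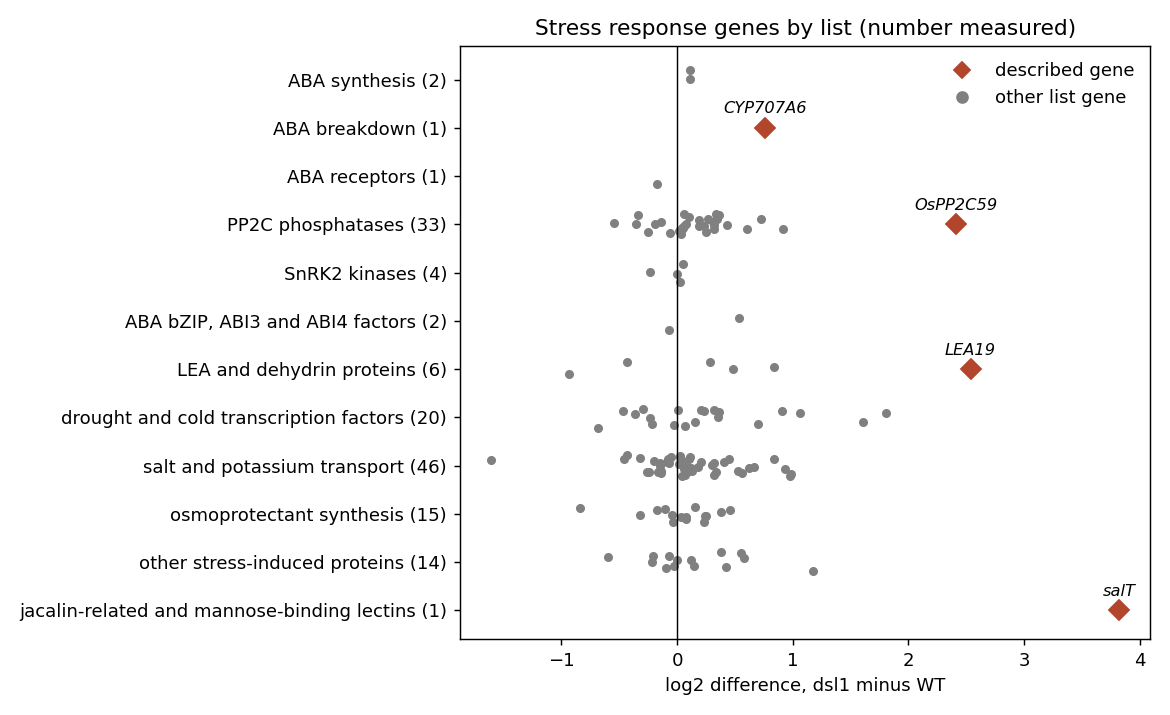
Log2 difference, dsl1 minus WT, of 145 genes in 12 lists, 1 row per list with the number measured in brackets. Diamonds are the 4 described genes and grey points the other 141, which lie between -1.61 and 1.81. OsPP2C59, at 2.41, and LEA19, at 2.54, lie to the right of the grey points in their rows.

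Neighbouring genes were examined because a histone deacetylase acts on chromatin. The 2 nearest measured genes on either side of each of the 4, in the reference order, gave 16 genes, a choice made after the data were seen. Their differences ran from -0.32 to 0.42, all below those of the 4 genes, which were picked for being higher. None passed in limma. In 4 of the 16 the groups did not overlap with dsl1 higher and the unadjusted p was under 0.05, and in 0 was dsl1 lower. The shares of all genes on the higher side are 15.0% without overlap and 9.46% at that p. For salT, the gene next to it, LOC4326473, had 8.10 ± 0.115 in dsl1 and 7.68 ± 0.0923 in WT (SD, n = 3 each, adjusted p = 0.338). For CYP707A6, the adjacent LOC4345809 differed by 0.37 (adjusted p = 0.387). LOC9268161, adjacent to LEA19, differed by -0.021, and LOC4341950, adjacent to OsPP2C59, by -0.32. Unmeasured genes lay between some of the 16 and the gene they flank.

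The sampled tissue was checked against its markers. Of 5 KNOX genes of the meristem, OSH1, OSH15 and OSH71 were measured, at 5.08, 5.69 and 4.86 in dsl1 and 4.93, 5.34 and 4.29 in WT. All 3 were higher in dsl1, OSH15 and OSH71 at an unadjusted p under 0.05 and none at an adjusted p under 0.05 in limma. The share of all genes higher at that unadjusted p is 9.46%. The 6 measured genes of leaf primordia, YABBY genes and DL, differed by at most 0.25 in either direction, and 5 of them were lower. Greening-leaf genes were also present, with CAB2R, a chlorophyll-binding protein, at 10.50 in dsl1 and 10.74 in WT. Of the 4 measured, 3 were lower and 1, CHLH, was higher, at 8.22 in dsl1 and 8.07 in WT, and none passed in limma. Over these 4, the mean level per array was 8.30 to 8.78 in dsl1 and 8.57 to 8.90 in WT. No root marker was measured. The correlation between arrays was 0.9796 to 0.9806 within dsl1, 0.9704 to 0.9795 within WT and 0.9621 to 0.9780 between them. The part of tissue make-up in the differences of the 4 genes was not tested.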

How the data were processed

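The authors' deposited table holds log2 expression of 54922 transcript clusters on 6 biotin-labelled whole-transcript arrays. They were made with Affymetrix Expression Console 1.3, per the submitters' processing notes. The sources used here give no settings for its background correction, normalisation and summarisation, and no genome build. Array medians lay between 5.30 and 5.40, and the log2 values were used as deposited. The number of arrays limits the precision.

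Titles gave the genotype by which arrays were grouped. Of the clusters, 15829 were paired with 1 gene by the platform table, all matched to the rice reference (ASM3414082v1) by gene identifier, and the brightest on average stood for a gene. Reference coordinates served only for the order of genes. dsl1 was compared with WT by limma 3.58.1 in R 4.3.3 (lmFit, eBayes, 2-sided, Benjamini-Hochberg over all clusters). The fit was tested on simulated data. Named genes are the 4, up to 4 of each list by smallest unadjusted p and the 3 nearest profiles, and others are marked in the text. Members and lists were chosen with earlier results of these data known. Lists matched symbols and synonyms only, and a gene in 2 lists was counted in the first. Promoter and protein sequences were not analysed here. Alternatives are given in the closing section.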

Additional observations from a re-analysis of the deposited data

How the results depend on the processing

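The 4 differences kept their direction under every alternative that gave a value. Leaving out 1 array could not turn them, since the groups did not overlap. Each moved by less than the gene's SD over the dsl1 arrays. For OsPP2C59 the move to 2.69 without dsl1 replicate 1, from 2.41, was larger than its WT SD of 0.187. LEA19 (like ONAC077) has no value without the dimmest 33.3% of clusters, to which it belongs. A second cluster per gene could not be tried. Counts over all clusters moved more. In limma 8 were higher and 6 lower at an adjusted p under 0.05. On gene-paired clusters alone 59 were higher and 16 lower, without the rows before the first gene-paired cluster 36 and 16, with the replicate block 1 and 0, and with 1 array left out 0 to 4 and 0 to 4. Of the 141 list genes 3 passed as higher on gene-paired clusters alone (NAC45, ONAC077 and HAK5, adjusted p = 0.0161, 0.0396 and 0.0396) and 1, NAC45 (adjusted p = 0.028), without those first rows. Both settings test fewer clusters, 15829 and 47129. The fit without the dimmest 33.3% also tests fewer, 36615, and gave 12 higher and 5 lower. Why the counts moved was not tested.

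At an unadjusted p under 0.05 the list genes lower in dsl1 numbered 3, against 6 on quantile normalisation, 5 without the dimmest clusters, 5 on gene-paired clusters, 5 without the first rows, 5 with a variance trend and 3 to 6 with 1 array left out. The higher ones stayed at 16 to 26 in all settings run. Signs turned for OsSAPK1 (-0.014 on quantile normalisation, -0.12 to 0.30 with 1 array left out), OsSAPK3 (0.0057 on median centring, 0.020 with array weights, -0.077 to 0.065), OsSAPK4 (-0.017 to 0.17), OsVP1 (-0.19 to 0.12), PSY3 (-0.17 to 0.37) and EM (-1.52 to 0.14). The cause was not tested.

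No sign of pairing by replicate number was seen. Same-numbered arrays had deviations correlated at -0.064, -0.125 and -0.052, and 0 of 3 dsl1 arrays were closest to their own number. With 3 arrays per group this cannot exclude that same-numbered samples were handled together, and the labels do not say. With the replicate block the list genes at an unadjusted p under 0.05 were 23 higher and 2 lower. Low signal limits LEA19 and ONAC077 in WT and RAB16C in both groups.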
